A study of Mus musculus with 2 samples.

Results

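Of the 24050 binding peaks of the transcription factor GATA4 found in mouse liver on chromosomes 1 to 19 and X, 1780 (7.40%, Wilson 95% interval 7.08 to 7.74) lay between genes but close to one. These near intergenic peaks were chosen by position alone. Their summit, the base of highest signal, lay outside every protein-coding gene of GENCODE mouse release 21 and more than 1 kb but at most 10 kb from the nearest start site of a protein-coding transcript. The peaks came from chromatin immunoprecipitation and sequencing of whole liver of healthy adult mice, with an antibody against GATA4 as the only agent named in the labels. There was 1 group of 2 samples, biological replicates 1 and 2, which carry the same tissue and donor identifiers, and the spread between them may therefore be technical. Sex was not collected and age is labelled unknown. Strain is not given in the sources used here. Whole liver holds several cell types, and a peak cannot be assigned to any of them from these data.

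GATA4 is a zinc-finger protein that binds the letters WGATAR, that is, GATA after A or T and before A or G, on either strand. In liver it is best known for its part in the identity of sinusoidal endothelial cells, which line the blood spaces with a porous wall, and it is also found in hepatocytes and stellate cells. Sequence a few kilobases upstream of a start site often holds enhancers, which are short stretches where several factors bind and act on a promoter at a distance. A near gene is not always the gene acted on, and the genes named here are those of the nearest start site.

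The sequences of 9 near intergenic peaks show what lay under their summits. Each runs from 50 bp before to 50 bp after the summit, from the plus strand of GRCm38 (mm10), in lower case with every WGATAR site on either strand in capitals. The sites for Ahsg (chr16:22881587-22881687), Med26 (chr8:72549705-72549805), Ephb4 (chr5:137348791-137348891) and S100a10 (chr3:93569225-93569325) are from the strongest peaks of the class. The site for Oit3 (chr10:59443422-59443522) is the strongest of the sinusoidal endothelial list, and the site for Mfsd4b5 (chr10:39991251-39991351) is shown beside Ahsg because both hold a CTG 7 or 8 bases before a GATA site, the spacing known from complexes of TAL1 with GATA factors.
Ahsg: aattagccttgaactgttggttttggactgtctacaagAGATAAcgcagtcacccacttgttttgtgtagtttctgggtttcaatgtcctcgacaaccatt
Med26: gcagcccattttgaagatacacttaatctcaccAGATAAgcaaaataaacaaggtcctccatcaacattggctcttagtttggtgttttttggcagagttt
Ephb4: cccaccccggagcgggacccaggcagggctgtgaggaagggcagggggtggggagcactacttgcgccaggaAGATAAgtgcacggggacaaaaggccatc
S100a10: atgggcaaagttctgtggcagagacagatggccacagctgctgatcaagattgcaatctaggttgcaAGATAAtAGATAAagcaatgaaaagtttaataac
Oit3: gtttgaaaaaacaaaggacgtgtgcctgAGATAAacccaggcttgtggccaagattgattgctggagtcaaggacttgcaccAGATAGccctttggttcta
Mfsd4b5: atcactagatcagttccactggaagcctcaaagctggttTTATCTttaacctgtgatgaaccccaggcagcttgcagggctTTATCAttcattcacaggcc

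The 3 strongest near intergenic peaks without a WGATAR site in this window were those for Fst (chr13:114465527-114465627), Rdh1 (chr10:127756208-127756308) and Ccdc9 (chr7:16295032-16295132), shown so that their letters can be set against the others.
Fst: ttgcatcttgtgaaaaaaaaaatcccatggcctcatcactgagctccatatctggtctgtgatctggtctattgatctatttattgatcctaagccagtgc
Rdh1: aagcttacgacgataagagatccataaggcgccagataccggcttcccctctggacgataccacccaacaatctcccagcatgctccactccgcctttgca
Ccdc9: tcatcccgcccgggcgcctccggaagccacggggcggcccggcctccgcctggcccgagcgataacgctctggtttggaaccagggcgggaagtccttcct
The window at Rdh1 held 1 copy of CGATAA and that at Ccdc9 held 1 copy, which differs from WGATAR in the letter before GATA. The window at Fst held 3 copies of GATC, and AGATAT on the minus strand. That at Rdh1 also held AGATAC and CGATAC.

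Near intergenic peaks were denser than peaks farther from genes, and densest just upstream of start sites. The sequence that could hold them covers 147 Mb, or 5.73% of the chromosomes used, and carried 12.1 peaks per Mb. Intergenic sequence over 10 kb from a start site carried 4.99 peaks per Mb (6794 peaks), a ratio of 2.43. Sequence inside genes at the same distances, exons included, carried 14.6 peaks per Mb. Upstream of the nearest start site the density was 18.6 peaks per Mb at 1 to 2 kb, 15.2 at 2 to 3 kb, 13.1 at 3 to 4 kb and 11.2 at 4 to 5 kb, and from 5 to 10 kb each 1 kb step held between 10.5 and 12.5. The density at 9 to 10 kb, on both sides together, was 10.2 peaks per Mb, still above that of farther intergenic sequence. These densities are descriptions of 1 peak list and were not tested.

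**Figure D1:**
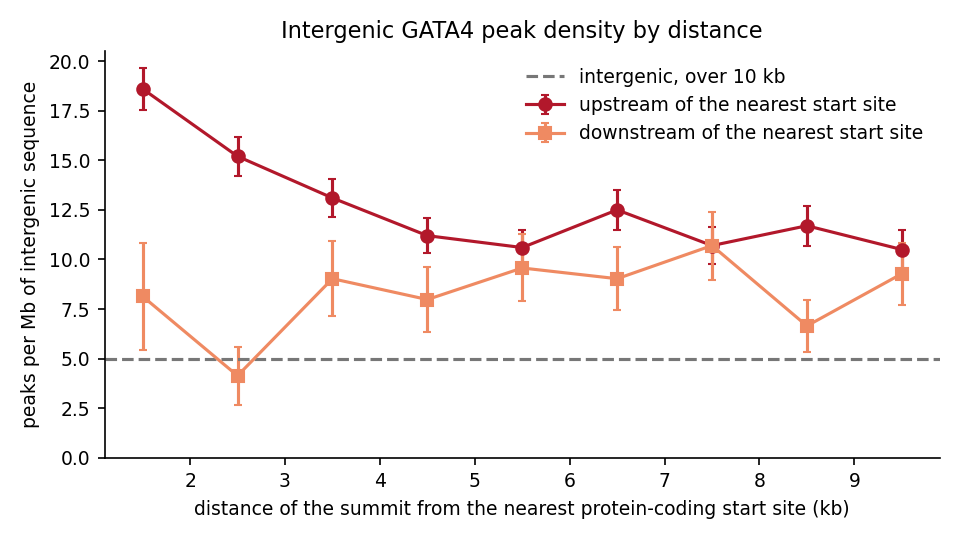
Intergenic GATA4 peaks per Mb of intergenic sequence against the distance of the summit from the nearest start site, in steps of 1 kb, upstream (circles) and downstream (squares), with bars of the square root of the peak count; the dashed line is the 4.99 peaks per Mb of intergenic sequence over 10 kb away. Upstream density fell from 18.6 at 1 to 2 kb to 11.2 at 4 to 5 kb, while downstream density showed no such fall.

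Most of the near intergenic peaks, 1553 of 1780 (87.2%, 85.6 to 88.7), were upstream of the nearest start site. The other 227 were downstream, that is, past the far end of a gene with a transcript start at most 10 kb away. Upstream sequence is 81.8% of the sequence that could hold such peaks, and the densities were 12.9 peaks per Mb upstream and 8.51 downstream, a ratio of 1.52. Of the downstream peaks 121 (53.3%, 46.8 to 59.7) lay where 2 genes converge. Over all near intergenic peaks 682 (38.3%) lay between genes that point away from each other, and so were upstream of both neighbours, 970 (54.5%) between genes in tandem and 128 (7.19%) between converging genes. The gap between the flanking genes had a median of 26387 bp, and 712 peaks (40.0%) were in gaps under 20 kb. The distance rule limits which gaps can hold such peaks. How the sequence that could hold them divides between these arrangements and gap sizes was not measured, so the counts are descriptions only. A WGATAR site was present in 59.5% (55.8 to 63.2), 57.0% (53.9 to 60.1) and 56.2% (47.6 to 64.5) of the peaks in the divergent, tandem and convergent gaps, and these intervals overlap.

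Some of this sequence is transcribed into RNA that codes for no protein. In all 239 near intergenic peaks (13.4%) lay inside a long noncoding gene and 67 (3.76%) were within 1 kb of the start site of one. The matching shares of all peaks, or of the sequence that could hold such peaks, were not measured. Of those 67 peaks 8.96% (4.17 to 18.2) were in the list of replicate 1, against 19.6% (17.7 to 21.5) of the other 1713, with intervals that overlap. WGATAR shares in the same groups were 55.2% (43.4 to 66.5) and 58.0% (55.7 to 60.3).

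The limits of the class cut through a continuum. The last summit left out at the lower limit was 999 bp upstream of Plekhg2, at rank 19017 by signal in the optimal list, and the nearest one kept was 1003 bp upstream of Zfp52, at rank 10067. At the upper limit the last one kept was 9992 bp upstream of Myh7, at rank 10242, and the next one left out was 10002 bp upstream of Fnbp1l, at rank 14421.

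The authors' optimal list rests far more on replicate 2 than on replicate 1, and the near intergenic peaks shared this. Replicate 1's own list held 4287 peaks and replicate 2's 26314, each cut at the authors' reproducibility limit; read depth is unknown. Of the 1780 near intergenic peaks 341 (19.2%, 17.4 to 21.1) shared at least 1 base with replicate 1's list, beside 17.0% of all peaks, and 1488 (83.6%, 81.8 to 85.2) with replicate 2's list, beside 82.5% of all peaks. Both lists held 324 of them (18.2%, beside 16.3% of all peaks) and replicate 2's list alone 1164 (65.4%, beside 66.2%). Replicate 1's list alone held 17 (0.955%, beside 0.778%), and neither list held 275 (15.4%, beside 16.7%). The authors' conservative list held 767 (43.1%), beside 38.2% of all peaks. In the relaxed lists of 300000 peaks for each replicate, made before thresholding, 1364 (76.6%) had a counterpart in replicate 1 and all 1780 in replicate 2. Over all peaks these shares were 72.1% and 99.9%, so presence in replicate 2's relaxed list was not particular to the near intergenic peaks.

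Replicate 1 support differed from that of intronic peaks at the same distance from a start site by less than counting error. It was 19.2% for the near intergenic peaks and 19% (545 of 2870) for the intronic ones, a difference of 0.168 points (95% Wald interval -2.16 to 2.49; adjusted p = 0.908, two-sided Fisher's exact test over peaks, Benjamini-Hochberg correction over 7 tests). Among the 6794 intergenic peaks over 10 kb away it was 21.7%, a difference of -2.55 points (-4.63 to -0.479; p = 0.0190, adjusted p = 0.0729, the same exact test). Peaks are not replicates, so each p describes these lists only.

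By signal the near intergenic peaks ran from rank 13 to rank 24045 of 24050, with a median of 11214. The strongest quintile of the optimal list held 418 of them (23.5%, 21.6 to 25.5), where 20% of all peaks lie by construction, and the weakest held 323 (18.1%). Intronic peaks at the same distance had 20.7% in the strongest quintile, a difference of 2.82 points (0.357 to 5.29; p = 0.0257, adjusted p = 0.0729, two-sided Fisher's exact test). The difference from the distant intergenic peaks was 1.11 points (-1.09 to 3.31; adjusted p = 0.453, exact test). Neither difference passed the threshold after correction.

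Among the near intergenic peaks, support in replicate 1 and the presence of a GATA site both fell from quintile to quintile. From the strongest to the weakest quintile, WGATAR was within 50 bp of the summit in 76.8%, 63.4%, 55.3%, 48.8% and 39.0% of the near intergenic peaks. The share in replicate 1's list fell from 56.9% to 19.4%, 4.73%, 2.47% and 1.86%, and that in replicate 2's list from 100% in the strongest to 53.6% in the weakest quintile. The optimal list was made from the same 2 samples, so its signal and the support in their own lists are not independent. Over all peaks replicate 1 support was 60.0% in the strongest and 3.08% in the weakest quintile. In the strongest quintile replicate 1 support was 56.9% (52.1 to 61.6) for near intergenic, 62.9% (58.9 to 66.7) for intronic and 67.3% (64.9 to 69.6) for distant intergenic peaks. The interval of the near intergenic peaks lay below that of the distant ones, a difference noticed in the data and not tested.

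**Figure D2:**
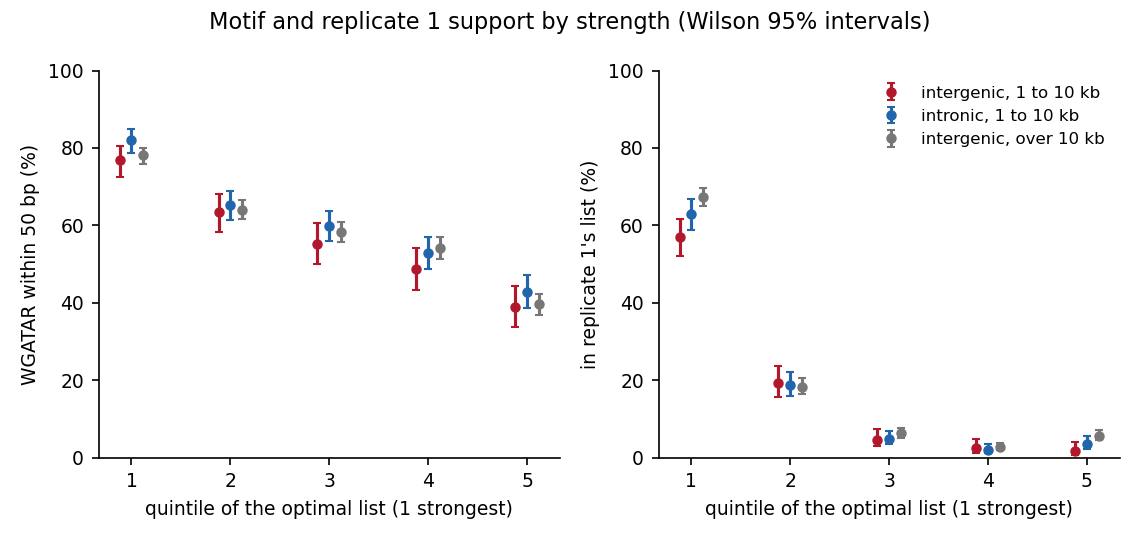
Share of peaks with WGATAR within 50 bp of the summit (left, percent) and in replicate 1's own list (right, percent) by quintile of signal in the optimal list, for near intergenic, intronic and distant intergenic peaks, with Wilson 95% intervals. WGATAR shares fell from the strongest to the weakest quintile in each class. Replicate 1 support was highest in the strongest quintile, at 56.9%, 62.9% and 67.3%; it was lowest in the weakest quintile for near intergenic peaks, and in the other classes it was higher there (3.69% and 5.73%) than in the quintile before (2.10% and 2.76%).

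Base composition moved with replicate support. In the strongest quintile, near intergenic peaks in replicate 1's list had a GC content of 47.0% ± 6.73 (SD over 238 peaks) in the summit window and those not in it 52.2% ± 7.59 (SD over 180 peaks). Replicate 1's list held 76.2% (68.0 to 82.8) of the 126 strongest-quintile peaks under 45% GC, 55.3% (48.5 to 61.9) of the 208 from 45 to 55% and 32.1% (23.1 to 42.7) of the 84 at 55% or more. The intervals of the 3 groups do not overlap. WGATAR shares in these groups were 83.3%, 79.3% and 60.7%. The same fall in replicate 1 support was present in distant intergenic peaks, from 78.8% to 66.9% and 43.4%, so it was not particular to the near ones. Of the near intergenic peaks in the strongest quintile 20.1% had 55% GC or more, against 14.9% of the distant ones; the part of composition in the difference between classes was not tested.

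The ranks of single peaks in the relaxed lists showed the same. The Spearman correlation of the ranks in the replicates was 0.51 over the 1364 near intergenic peaks with a counterpart in both, 0.51 over 2176 intronic and 0.52 over 5477 distant intergenic peaks; these points share libraries and base composition, and the values are descriptions. Of 95 near intergenic peaks at rank 1000 or better in replicate 2, 49 were also at rank 1000 or better in replicate 1, and 9 were beyond rank 10000 or absent there. Those 9 had a GC content of 63.1% ± 8.64 (SD), against 50.1% ± 7.97 for the others. In the other direction, 2 of the 97 peaks at rank 1000 or better in replicate 1 were beyond rank 10000 in replicate 2.

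**Figure D3:**
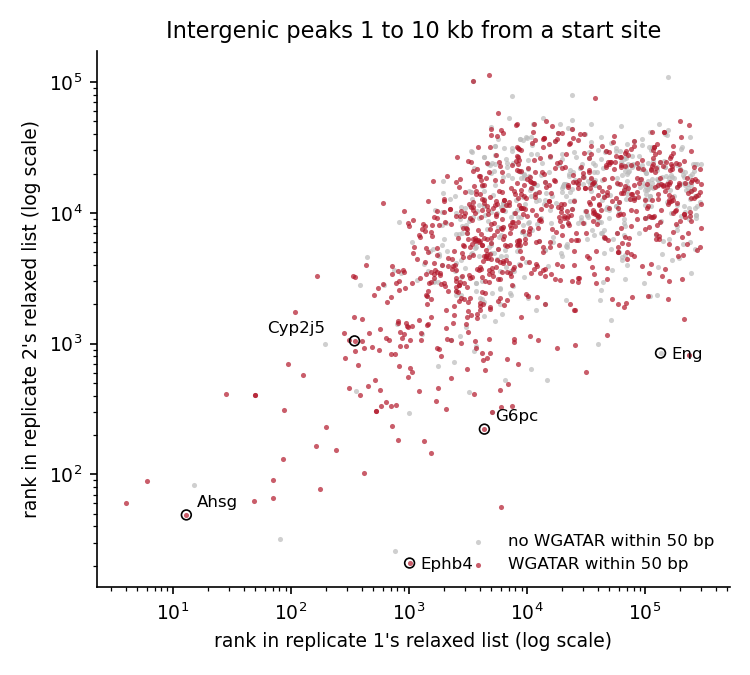
Rank in replicate 2's relaxed list (vertical, log scale) against rank in replicate 1's (horizontal, log scale) for the 1364 near intergenic peaks with a counterpart in both, with WGATAR (red) or without (grey) within 50 bp of the summit; the strongest peaks of 5 genes are circled. Ahsg was strong in both lists, while Ephb4, G6pc and Eng were strong in replicate 2 and lower in replicate 1.

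GATA sites were the most frequent of the motifs searched at these summits. WGATAR was within 50 bp of the summit in 1031 of the 1780 near intergenic peaks (57.9%, 55.6 to 60.2), beside 52.8% of all peaks. In equally long windows centred 500 bp to the left and right it was in 15.9%, a ratio of 3.64. AGATAA was the most enriched of the 4 forms, in 30.2% of summits and 5.08% of flanks (5.94 times), followed by TGATAA with 18.3% and 4.10% (4.47 times). AGATAG, in 11.3% and 4.94%, and TGATAG, in 6.29% and 3.03%, were enriched 2.30 and 2.07 times. Sites were centred on the summits. The nearest one lay a median of 18.5 bp from the summit, within 20 bp in 584 (56.6%) of the 1031 peaks that had one. Site density reached 9.66 per kb in the highest 10 bp bin and was between 1.18 and 2.47 per kb beyond 300 bp.

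**Figure D4:**
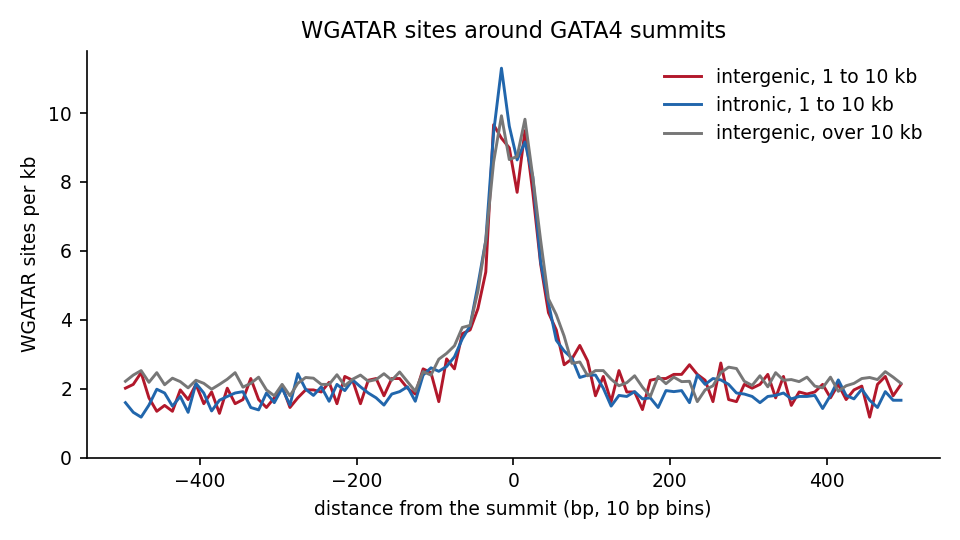
WGATAR sites per kb (both strands) in 10 bp bins from 500 bp before to 500 bp after the summit, for near intergenic, intronic and distant intergenic peaks. The 3 curves rise together near the summit, the near intergenic one to 9.66 sites per kb.

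Several copies went with rank and with support. There were 197 near intergenic peaks (11.1%, 9.69 to 12.6) with 2 or more WGATAR sites in that window, beside 10.4% of all peaks, and the highest count was 5. Median rank was 14166 for the 749 peaks with no site, 9119 for the 834 with 1, 7136 for the 171 with 2 and 4747 for the 22 with 3. Replicate 1's list held 11.3% (9.27 to 13.8) of peaks without a site, 24.8% (22.3 to 27.6) of those with at least 1 and 31.0% (24.9 to 37.7) of those with 2 or more. Seen from the other side, WGATAR was present in 76.2% (71.3 to 80.5) of peaks in both replicates' lists, 54.8% (51.9 to 57.6) of those in replicate 2's alone and 49.8% (44.0 to 55.7) of those in neither.

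WGATAR shares differed little between position classes. The near intergenic share of 57.9% was 3.19 points under the 61.1% of intronic peaks at the same distance (difference -3.19, 95% Wald interval -6.10 to -0.288; p = 0.0312, adjusted p = 0.0729, two-sided Fisher's exact test, correction over 7 tests). It was 1.81 points under the 59.7% of distant intergenic peaks (difference -1.81, -4.38 to 0.765; adjusted p = 0.292, exact test). Upstream peaks had 58.0% and downstream peaks 57.3% (difference 0.748, -6.14 to 7.64; p = 0.829, adjusted p = 0.908, exact test). The comparisons with the other classes changed with the list used. In replicate 2's own list, with 1911 near intergenic peaks, the differences were -4.06 (adjusted p = 0.0360, exact test) from intronic and -3.97 (adjusted p = 0.0142, exact test) from distant peaks. In replicate 1's list, with 349, they were 1.13 and 3.84, with adjusted p of 0.908 and 0.324 (exact test). Each correction kept the other tests from the optimal list. Replicate and list size cannot be told apart here. Within the near intergenic class the share was lowest close to the start site, at 155 of the 310 peaks (44.5% to 55.5%) from 1 to 2 kb, and between 55.6% and 65.3% in each 1 kb step beyond. Without peaks at 1 to 2 kb, a setting added after seeing the data, the difference was -0.137 points from distant intergenic peaks (adjusted p = 0.930, exact test) and -2.83 from intronic ones (adjusted p = 0.201, exact test).

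Of the 22 motifs searched, GATA forms included, 12 were over 1.5 times as frequent at near intergenic summits as in the flanks, 7 were between 1 and 1.5 times and 3 were under 1. The lowest ratios were 0.810 for the unrelated control, 0.849 for HNF1, the site of a hepatocyte regulator (2.53% and 2.98%), and 0.994 for KLF (8.71% and 8.76%). ETS letters (GGAA with A or C before it and A or G after it), bound by a family that includes endothelial regulators, were in 43.1% of summits and 25.4% of flanks. They were in 46.0% of all summits. AGGTCA, the unit of hormone receptor sites, was in 14.3% of summits and 6.80% of flanks, beside 11.8% of all summits. The longer HNF4 site, bound by the hepatocyte regulator of that name, was in 26 peaks (1.46%) against 0.225% of flanks, beside 0.973% of all summits. The composite of CTG and a GATA site was in 67 peaks (3.76%, 2.97 to 4.75) and 0.674% of flanks. It was in 3.87% of all summits. An unrelated control, TATGC after A or T, was in 4.55% of summits and 5.62% of flanks. These shares have no test, and some letters overlap, since AGATAA is 1 of the 4 forms of WGATAR and the composite holds one.

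Of 22 motifs compared, 1 share differed from intronic peaks at the same distance and 2 differed from distant intergenic peaks (two-sided Fisher's exact test, correction over 44 tests). SP letters (GGGCGG), the GC box bound by SP and KLF factors, were in 5.67% (4.69 to 6.85) of near and 3.05% (2.66 to 3.48) of distant intergenic summits (adjusted p = 2.76e-05, exact test), and in 9.33% of all summits. The CTCF core, part of the site of the insulator protein CTCF, was in 3.20% and 1.91% (adjusted p = 0.0400, exact test). Neither share differed from intronic summits at the same distance after correction. Those held SP letters in 5.09% (adjusted p = 0.702, exact test) and the CTCF core in 2.09% (adjusted p = 0.114, exact test). MEIS letters (TGACAG), bound by homeodomain partners, were in 6.63% of near intergenic and 9.09% of intronic summits (adjusted p = 0.0421, exact test). ETS letters fell short of the threshold, with 43.1% against 47.0% of intronic (adjusted p = 0.0579, exact test) and 46.6% of distant peaks (adjusted p = 0.0553, exact test). Beyond 2 kb, a setting added after seeing the data, SP kept its call with 5.37% against 3.05% (adjusted p = 0.00119, exact test) and CTCF with 3.33% against 1.91% (adjusted p = 0.0317, exact test). MEIS lost it, with 7.01% against 8.91% (adjusted p = 0.334, exact test). With 1 peak kept per group within 500 bp, SP alone passed, and CTCF and MEIS each had an adjusted p of 0.0548 (exact test). None of the 44 comparisons passed Fisher's exact test after correction in the conservative list, where 1 had an unadjusted p under 0.05, or in replicate 1's own list, where 3 had. SP letters were there in 3.50% and 2.01% of the near intergenic peaks and in 1.99% and 1.41% of the distant ones. In replicate 2's own list 10 comparisons passed, SP among them with 6.33% against 3.72% (adjusted p = 8.92e-05, exact test). GC content, which moves with SP letters, was 49.9% ± 8.26 (SD over peaks) in near and 48.0% ± 7.46 in distant intergenic windows, and its part in the SP difference was not tested.

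The near intergenic peaks had 1431 nearest genes, 6.58% of the 21755 protein-coding genes on these chromosomes. Of these genes 1140 had 1 peak, 242 had 2, 40 had 3 and 9 had 4. Neighbouring peaks were not always separate: 153 peaks (8.60%) lay within 250 bp of another of the class, and 1483 (83.3%) had the same width of 360 bp. With 1 peak kept per group within 500 bp, 1691 peaks remained and 233 genes (16.3%) had 2 or more. Many of the genes also carried GATA4 at the promoter, 552 of 1431 (38.6%) having a summit no more than 1 kb from a start site, against 4463 (20.5%) of all protein-coding genes.

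The strongest near intergenic peak was 6605 bp upstream of Arhgap26, which encodes a GTPase-activating protein. It was at rank 13 in the optimal list, at rank 4 in replicate 1's relaxed list and at rank 60 in replicate 2's, and had 3 WGATAR sites. The peak 9640 bp upstream of Ahsg, the gene of the plasma glycoprotein fetuin-A, was at rank 15, and at ranks 13 and 49 in replicates 1 and 2. It sits in a gap of 11642 bp behind the chaperone gene Dnajb11, and its single site is the AGATAA of the composite shown above. Peaks 1485 bp upstream of Med26, a Mediator subunit, and 6626 bp upstream of Fst, the activin-binding protein follistatin, were at ranks 20 and 28. Their relaxed ranks were 6 and 89 for Med26 and 15 and 83 for Fst, better in replicate 1 in each case.

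Other strong peaks were nearer the top in replicate 2. Between Gpr182, an endothelial chemokine-scavenging receptor, and Rdh1, a retinol dehydrogenase, genes that point away from each other across 7988 bp, a peak 3463 bp upstream of Rdh1 was at rank 29, and at ranks 81 and 32 in replicates 1 and 2. The same gap held 2 further peaks for which Gpr182 was the nearest gene, 3173 and 3741 bp upstream of it, at ranks 1823 and 2045, and all 3 were in both replicates' lists. The peak 1268 bp upstream of Ephb4, the venous receptor of ephrin-B2, was at rank 44 in the optimal list, 1013 in replicate 1 and 21 in replicate 2, with 66.3% GC in its window. The peak 8292 bp upstream of Ccdc9, in the gap shared with the apoptosis gene Bbc3, was at rank 49 in the optimal list, 768 in replicate 1 and 26 in replicate 2, with 72.3% GC. Both GC-rich peaks passed in both lists but stood far lower in replicate 1.

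Among the 12 strongest, 2 lay downstream of their genes. One was 8548 bp past the start site of S100a10, the annexin A2 partner, at ranks 49 and 63 in the replicates, with 2 AGATAA sites. The other was 6883 bp past the start of the potassium channel gene Kcnj1, at ranks 70 and 66, in a gap of 23006 bp where Kcnj1 converges with Fli1, an ETS factor gene of endothelium. The remaining 3 were upstream of Oit3, which is expressed in sinusoidal endothelium (1694 bp; ranks 71 and 90), Rap1a, a small GTPase (7334 bp; ranks 176 and 78), and Phyh, the peroxisomal phytanoyl-CoA hydroxylase (1130 bp; ranks 86 and 132). All 12 were in both replicates' own lists and in the conservative list, and 9 had a WGATAR site within 50 bp; Fst, Rdh1 and Ccdc9 had none.

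The 9 genes with 4 near intergenic peaks were Trp53inp1, Egfl7, Zfp36, Eng, Arl4d, Numb, Hs3st3b1, Dusp6 and Id3, of which Eng, Arl4d and Numb kept 4 with 1 peak per group within 500 bp. For Eng, the endothelial co-receptor endoglin, the peaks lay 2228, 3581, 6782 and 8454 bp upstream. In replicate 2's relaxed list they stood at ranks 4407, 2350, 6301 and 847, and in replicate 1's at 4927, 126929, 32327 and 135567. Their GC contents were 51.5%, 65.3%, 48.5% and 68.3% in the same order. The peak at 2228 bp held the single WGATAR site among the 4 and had similar ranks in both replicates, and none of the 4 was in replicate 1's own list. The peaks of Arl4d, an ARF-like GTPase, were also 4 separate ones, 1 upstream and 3 downstream, of which 2 were in both lists. For Trp53inp1, a p53-induced gene, and Zfp36, which encodes the mRNA decay factor tristetraprolin, the 4 peaks made up 2 separate groups each. The strongest peak of Trp53inp1 was at rank 177 in the optimal list, and at ranks 50 and 405 in the replicates. For Egfl7, a secreted endothelial protein, there were 3 separate groups, the strongest at rank 214 in the optimal list, 1540 in replicate 1 and 147 in replicate 2.

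Gene lists named after liver cell types and functions were read against the 6.58% of all protein-coding genes. Lists of hepatocyte and sinusoidal endothelial genes stood highest. The counts were 16 of 45 genes of the sinusoidal endothelial list (35.6%) and 14 of 44 genes of hepatocyte secreted and surface proteins (31.8%). Next came 9 of 29 genes of xenobiotic metabolism (31.0%), 18 of 63 metabolic enzymes and transporters (28.6%) and 10 of 39 liver transcription factors (25.6%). The sinusoidal endothelial list also holds general endothelial genes, such as Eng and Egfl7, so its share is not specific to sinusoids. None of 20 Kupffer cell and macrophage genes, 10 cholangiocyte genes or 18 neuron genes had such a peak. These lists are too small for that to set them apart from the 6.58% of all protein-coding genes. Counts were 3 of 22 for stellate cell and mesenchyme genes, 2 of 19 for erythroid and megakaryocyte genes, 1 of 15 for lymphocyte genes, 1 of 16 for continuous capillary genes and 2 of 16 for cardiac genes. The GATA and FOG list had 2 of 8, Gata2 and Gata6, which are also counted in other lists. Of 20 ubiquitously expressed genes 4 had a near intergenic peak, none of them through replicate 1's list. The share of these ubiquitous genes was also above the 6.58% of all protein-coding genes. Standing above that line is therefore not in itself specific to liver genes. In replicate 1's own list, where 321 genes (1.48%) had a near intergenic peak, the counts were 5 sinusoidal endothelial, 4 hepatocyte, 4 xenobiotic, 7 metabolic and 4 transcription factor genes. The lists were chosen with earlier results of these data known, so the counts are descriptions and nothing is tested with them.

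**Figure D5:**
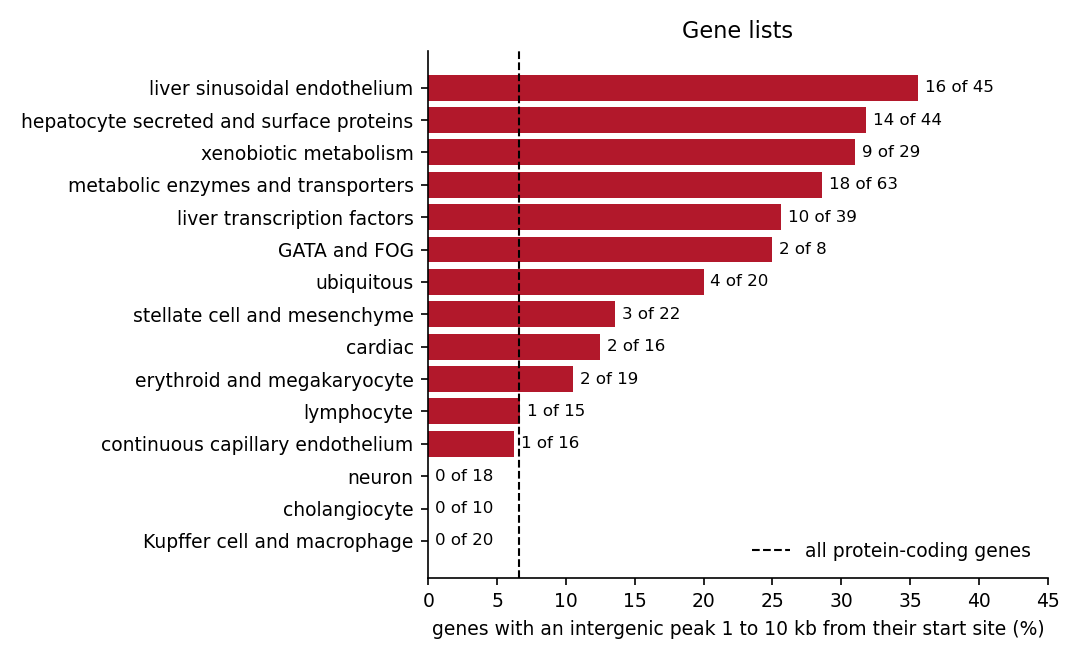
Share (percent) of the genes of each list that had a near intergenic GATA4 peak with their start site as the nearest, with the count and list size beside each bar; the dashed line is the 6.58% of all protein-coding genes. The sinusoidal endothelial list, which includes general endothelial genes, stood at 35.6%. The list of ubiquitously expressed genes, with 4 of 20, also stood above the dashed line. Kupffer cell, cholangiocyte and neuron lists stood at 0, but they are too small for 0 to set them apart from the dashed line.

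Of the sinusoidal endothelial list the strongest peaks after Oit3 and Egfl7 were those of Gata2 and Stab2. Gata2, another GATA factor of endothelium, had a peak 4082 bp upstream at rank 1463, with ranks 7759 and 1027 in replicates 1 and 2 and 2 WGATAR sites. Stab2, the hyaluronan scavenger receptor of the sinusoids, had 3 peaks upstream, the strongest 7570 bp away at rank 1625. Its ranks were 1385 in replicate 1 and 2368 in replicate 2, so it stood higher in replicate 1, unlike Gata2. All 16 genes had a peak upstream, as did 1262 of all 1431 genes with a near intergenic peak. For 10 of the 16 a WGATAR site lay at a summit, where 57.9% of single near intergenic peaks had one. Of the continuous capillary list the only gene was Aplnr, the apelin receptor, with its strongest peak at rank 3890 and no WGATAR site there.

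Among hepatocyte genes, Apoa2, an apolipoprotein of high-density lipoprotein, had a peak 1065 bp upstream at rank 406, with ranks 2050 and 318 in replicates 1 and 2. The peak for Afp, the fetal plasma protein alpha-fetoprotein, lay 5013 bp upstream of it in the gap of 14134 bp behind Alb, the albumin gene. It was at rank 2230, with ranks 1634 and 2965, and no WGATAR site. Asgr1, a subunit of the asialoglycoprotein receptor, had a peak 4112 bp upstream at rank 2501, with ranks 3135 and 2708. All of these were in both replicates' lists.

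Metabolic genes were led by Angptl4, a secreted inhibitor of lipoprotein lipase, with a peak 7099 bp upstream at rank 107 and close ranks of 163 and 165 in the replicates. G6pc, the glucose-6-phosphatase of gluconeogenesis, had 3 peaks upstream, the strongest 2849 bp away at rank 388. Its ranks were 4360 and 222, and it had 2 WGATAR sites and 60.4% GC. Fbp1, another gluconeogenic enzyme, had a peak 1238 bp upstream at rank 1810, present in replicate 2's list and not in replicate 1's. Cpox, an enzyme of heme synthesis, went the other way, with rank 438 in replicate 1 and 4600 in replicate 2 for a peak of 35.6% GC. Of the cytochrome P450 genes, Cyp2j5 had a peak 1147 bp upstream at rank 622 (ranks 346 and 1050), Cyp3a11 one 1479 bp upstream at rank 919 (796 and 1416) and Cyp4a10 one 3982 bp upstream at rank 1699 (930 and 2672). These 3 windows had 38.6%, 39.6% and 36.6% GC, and the peaks ranked higher in replicate 1. Cyp2d22 went the other way, with a peak 2495 bp upstream at rank 2638 (3289 and 2241) and 33.7% GC, the lowest of the 4.

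Transcription factor genes of liver had 20 near intergenic peaks over 10 genes. Nr1d1, the clock repressor REV-ERB alpha, had a peak 7998 bp upstream at rank 553, with ranks 5087 and 301 in replicates 1 and 2. Nr0b2, the corepressor SHP, had one 4154 bp past its start at rank 556, with ranks 1766 and 461. Cebpa, a hepatocyte regulator encoded by a single exon, had 3 peaks, of which the strongest lay 4451 bp past its start at rank 1233 and another 2637 bp upstream at rank 1349. Cebpb, its relative, had its strongest 3108 bp past the start at rank 1962. Among the strongest peaks of these 4 genes, that of Nr0b2 was in both replicates' lists and the others in replicate 2's alone. The upstream Cebpa peak at rank 1349 was in both lists.

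Lists of other cell types had no peak stronger than that of Myh7. Gata6, a relative of GATA4 in the cardiac and GATA lists, had a peak 1007 bp upstream at rank 2161, and Myh7, a myosin heavy chain gene, had one 7959 bp upstream at rank 1312; both were in both lists. Bmp10, a ligand counted in the stellate list, had one at rank 3991 in both lists, while Colec11 was in replicate 2's list alone and Tcf21 in neither. Of the erythroid list, Nfe2 was at rank 2379 with relaxed ranks of 213814 in replicate 1 and 1556 in replicate 2, and Tal1 at rank 19453. The lymphocyte gene Lck had a peak at rank 23292 in a window that was 100% soft-masked repeat, in neither replicate's list. Among ubiquitous genes the peaks of Pgk1, Rab7 and Actb stood at ranks 6009, 6273 and 10125.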

How the data were processed

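ChIP-seq peak lists of 2 replicates of 1 group were used. Per the lineage tables deposited beside the samples, the optimal, conservative and relaxed lists come from an earlier run of the authors' processing and the replicates' own thresholded lists from a later one. All are on mm10, with aligner and peak caller not given in the sources used here. Each peak has a signal score and an irreproducible discovery rate score, both deposited without a unit. The signal score ranked peaks within 1 list only. The optimal list held 24083 peaks, 33 of them outside chromosomes 1 to 19 and X and left out. Read depth is unknown. Wilson 95% intervals cover counting over peaks only, and other errors are named where given.

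Summits were classed against GENCODE mouse release 21 basic protein-coding genes (21755 genes, 41219 distinct start sites). A peak counted as shared with another list where at least 1 base overlapped, so neighbouring peaks can share a counterpart. Motifs on either strand were counted from 50 bp left to 50 bp right of each summit and in equal windows centred 500 bp away. Python 3.11.15, numpy 2.4.6, pandas 2.3.3, scipy 1.17.1, pysam 0.24.0 and matplotlib 3.10.9 were used, and the classing, overlap, motif and testing steps were tested on simulated data. Two-sided Fisher's exact tests were corrected by Benjamini-Hochberg over 7 tests of position class and, separately, 44 of motifs. The class, its limits, the gene lists and the tests were chosen with earlier results of these data known. The text names the genes of the 12 strongest peaks, the 5 genes with the most peaks and up to 4 genes of each list by rank; 1 item that this rule names is not reported here. The other genes with 4 peaks and Gpr182 were named after their values were seen, as were the comparisons by GC content and the words in windows without WGATAR. Alternatives were other lists, distance limits, motif windows, overlap rules and 1 peak per 500 bp.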

Additional observations from a re-analysis of the deposited data

How the results depend on the processing

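No paired analysis was possible because there is 1 group. The number of near intergenic peaks, 1780 in the optimal list, was between 349 (replicate 1's own list) and 1911 (replicate 2's) with a replicate left out, 772 in the conservative list, 946 with an upper limit of 5 kb and 3023 with one of 20 kb. The share upstream was 88.8% with 1 start site per gene. The share with WGATAR was 69.7% within 100 bp, 30.2% for AGATAA alone, 68.9% in the conservative list and between 54.6% and 70.5% with a replicate left out. With 50% of both peaks required to overlap, replicate 1's list held 14.4% and replicate 2's 77.1%, and replicate 2's held 80.8% with summits within 100 bp. Leaving out a replicate took the WGATAR difference from intronic peaks to between -4.06 and 1.13 points and that from distant intergenic peaks to between -3.97 and 3.84. The difference from distant peaks was -0.308 points in the strongest 10% in place of the strongest quintile, and the upstream difference was -2.22 points for AGATAA; neither passed a test. Of 28 alternatives of the 7 class tests, 2 had an adjusted p under 0.05, both in replicate 2's list. The 3 motif differences became 6 with windows of 100 bp, 1 with 1 peak per 500 bp, 0 in the conservative list, and between 0 and 10 with a replicate left out, settings added after seeing the data. The cause of these changes was not tested. Of 45 alternatives of the gene list counts, 34 were within 1.5 times, and these include lists that stayed at 0. In replicate 1's own list the sinusoidal endothelial count was 5 in place of 16, and the hepatocyte count 4 in place of 14. In replicate 2's own list these counts were 17 and 15.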

Other observations

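Among the 749 near intergenic peaks without WGATAR within 50 bp of the summit, 54 other words of 6 letters with GAT inside were set against flank windows without WGATAR. Of these words 18 were over 1.5 times as frequent at the summits, 21 between 1 and 1.5 times and 15 under 1, down to 0.527 for TGATGC. This was looked at after the letters of the strongest such peaks had been seen, and it has no test. Of the words near the top of that order, AGATTA was in 84 of them (11.2%, Wilson 95% interval 9.15 to 13.7) and in 3.21% of the flanks, a ratio of 3.50. CGATAA, the word at Rdh1 and Ccdc9, was in 26 (3.47%, 2.38 to 5.04) and 0.668%, a ratio of 5.20. CGATAG was in 12 (1.60%) and 0.401%. AGATAT, which the window at Fst also held, was in 65 (8.68%) and 3.74%. The core word GATC, present in 3 copies at Fst, was in 22.6% of these summits and 21.3% of the flanks. GATA with any neighbouring letters was in 272 (36.3%) of the summits and 24.3% of the flanks. Over all 24050 peaks, summits without WGATAR held AGATTA in 9.10% and CGATAA in 3.64%, so these words were not particular to near intergenic peaks.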
